A study of Homo sapiens with 2 samples.

Results

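The 10 genes described here carry bone morphogenetic protein (BMP) signalling from the ligand to its best known targets. They are the ligand BMP4, the receptors BMPR1A and BMPR2, the signal carriers SMAD1 and SMAD5, the inhibitors SMAD6 and SMAD7, and the target genes ID1, ID2 and ID3. They were chosen by name and role, with earlier results of these data known. All 10 were matched by symbol to the gene table, which holds 62700 genes. Their transcripts were matched to a second table of transcript levels. A list of 71 BMP pathway genes, which includes the 10, gave the setting for each role.

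RNA came from TCam-2 cells, an established human cell line from a seminoma, a germ cell tumour of the testis. All cells in both libraries had been transduced with a DDX53 construct that carries a FLAG tag, DDX53 being a DEAD-box RNA helicase gene. The labels name the genotype as overexpression of DDX53, and they give neither the promoter of the construct nor whether the cells were a clone. The 2 libraries, called replicate 1 and replicate 2, form 1 group, and nothing in the labels says that they came from separate cultures. The study planned GFP-FLAG and untransduced TCam-2 cells as its controls, and those libraries were not analysed here. The values below are therefore levels in DDX53 cells and differences between 2 libraries of the same condition, and none of them is an effect of DDX53.

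BMP ligands bind pairs of type I and type II receptor kinases at the cell surface. The type II kinase activates the type I kinase, which phosphorylates the receptor-regulated SMADs, and these enter the nucleus with SMAD4 and bind the regulatory DNA of target genes. SMAD6 and SMAD7 are themselves induced by the signal and block it, and the ID proteins bind E proteins and keep them off DNA. BMP signals from neighbouring tissue start the formation of primordial germ cells in the embryo, the cells that seminoma cells resemble.

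The libraries held 24137664 reads in genes in replicate 1 and 22198929 in replicate 2. CPM below is the number of reads of a gene per 1000000 of these reads. The 3 reads that a count of 0 still allows come to 0.124 CPM in the first library and 0.135 CPM in the second. DDX53 itself was at 6.34 ± 0.405 CPM (SD, n = 2), and with no untransduced library at hand this level does not test the label. All 10 markers of germ cells and seminoma were at 1 CPM or more in both libraries, with sums of 5609 and 5596 CPM. The highest of these were POU5F1 (1891 and 1921 CPM) and TFAP2C (1255 and 1247 CPM), and the lowest was NANOS3 (4.97 and 6.08 CPM). The marker lists differ in length, so their sums do not compare cell types. None of the 6 markers of testis somatic cells reached 1 CPM in both libraries (sums of 2.07 and 1.13 CPM, most of it INHA at 1.45 and 0.856 CPM), and 3 of the 4 immune markers had no read. Of 5 fibroblast markers, COL1A1, COL1A2 and LUM were detected. Their list summed to 474 and 448 CPM, of which COL1A2 alone made up 455 and 424 CPM, while DCN had 1 read in each library and PDGFRA had 8 and 4. Of 4 markers of embryonal carcinoma, 3 were detected, with sums of 135 and 107 CPM for the list. DNMT3B alone made up 124 and 98.4 CPM of these sums. GDF3 was at 7.46 and 6.4 CPM, TNFRSF8 at 2.44 and 1.31 CPM, and SOX2 at 0.994 and 1.08 CPM. The part of these cell type genes in the results below was not tested. In bulk RNA, a change in the number of cells that express a gene and a change in RNA per cell cannot be told apart.

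Between the libraries, 4 of the 10 genes were called different at an adjusted p under 0.05 in edgeR's exact binomial test, against 2008 of 15299 genes tested (13.1%). ID1, ID2 and ID3 were higher in replicate 2, where 6.78% of all genes were, and BMPR2 was lower, where 6.35% were. The DNA in front of these 4 genes is shown because the comparison turned on them, and that of SMAD6 because it alone among the 10 held a SMAD box joined to its own reverse complement. Each line gives the 250 bases before a RefSeq start site, 5′ to 3′ on the strand of the gene, from the RefSeq promoter table of GRCh38.p14. Capitals mark GTCT or its reverse complement, the core of the box that SMAD proteins bind, and GGCGCC, a GC-rich box bound by SMAD1 and SMAD5.
ID1 (chr20:31605039-31605288, plus strand): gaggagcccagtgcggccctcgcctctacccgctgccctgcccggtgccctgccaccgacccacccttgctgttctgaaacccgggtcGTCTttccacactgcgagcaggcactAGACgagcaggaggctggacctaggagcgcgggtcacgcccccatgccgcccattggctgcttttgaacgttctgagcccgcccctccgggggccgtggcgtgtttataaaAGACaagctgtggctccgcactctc
ID2 (chr2:8681806-8682055, plus strand): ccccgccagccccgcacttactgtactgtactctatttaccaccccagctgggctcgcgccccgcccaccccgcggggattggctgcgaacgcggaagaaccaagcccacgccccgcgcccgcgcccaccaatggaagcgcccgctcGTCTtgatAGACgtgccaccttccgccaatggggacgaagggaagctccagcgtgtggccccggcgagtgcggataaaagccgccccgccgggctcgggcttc
ID3 (chr1:23559502-23559751, minus strand): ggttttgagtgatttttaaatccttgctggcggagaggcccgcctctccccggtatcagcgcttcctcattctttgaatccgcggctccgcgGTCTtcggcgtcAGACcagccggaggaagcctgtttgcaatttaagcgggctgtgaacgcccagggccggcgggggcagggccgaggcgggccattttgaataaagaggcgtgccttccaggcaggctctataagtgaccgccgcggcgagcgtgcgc
SMAD6 (chr15:66701986-66702235, plus strand): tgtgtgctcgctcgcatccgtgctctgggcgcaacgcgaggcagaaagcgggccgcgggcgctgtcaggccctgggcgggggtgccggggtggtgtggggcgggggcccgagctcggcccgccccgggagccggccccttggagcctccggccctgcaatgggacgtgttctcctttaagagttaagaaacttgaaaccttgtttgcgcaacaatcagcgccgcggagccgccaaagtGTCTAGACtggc
BMPR2 (chr2:202376077-202376326, plus strand): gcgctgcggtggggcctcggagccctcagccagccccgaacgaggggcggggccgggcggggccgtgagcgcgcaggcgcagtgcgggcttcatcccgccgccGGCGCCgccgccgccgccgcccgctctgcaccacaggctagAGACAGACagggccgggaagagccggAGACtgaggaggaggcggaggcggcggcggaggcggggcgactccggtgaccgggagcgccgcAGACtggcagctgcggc

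In each of the 3 ID promoters GTCT was followed downstream by its reverse complement, as it also was in windows of SMAD1, SMAD6 and SMAD7. How many of all promoters hold this order was not counted, so it may be ordinary. Counted from the base before the start as -1, ID1 held GTCT at -162 on the plus strand and its reverse complement at -136 and -25. ID2 held GTCT at -103 with the reverse complement at -95. ID3 held GTCT at -158 with the reverse complement at -146. GTCT is a short motif, and 84% of 35116 RefSeq promoters (windows from 250 bases before to 50 bases after the start) held it on either strand, while 56.4% held it more than once. Its presence in 15 of the 18 start sites of the 10 genes, belonging to 9 genes, is a description of sequence only. BMPR1A was the gene whose window held neither motif.

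In SMAD6, GTCT was joined directly to its reverse complement, with its first base at -12, an arrangement found in 71 of all promoters (0.202%) and in no other of the 10 genes. This arrangement was looked for after the sequences had been seen. BMPR2 held 4 copies of the reverse complement between -106 and -17 and GGCGCC at -147, and its 250 bases were 79.2% G and C, against 62% to 69.2% in the other 4 sequences. GGCGCC was present in windows of BMP4, BMPR2, SMAD1 and SMAD5, in 5 of the 18 start sites against 19.2% of all promoters. GGCGCC and GTCT set 5 bases apart, the arrangement of the BMP response element known from an ID1 enhancer, occurred in 36 promoters (0.103%) and in none of the 10 genes.

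The ID target genes held the highest levels of the 10, and the ligand BMP4 and the inhibitor SMAD6 the lowest. In TPM (transcript abundance per length, summed over the transcripts of a gene), ID1 was highest of the 10 at 506 ± 71.9 (SD, n = 2) and SMAD6 lowest at 2.12 ± 0.439. The order ran ID1, ID3, ID2, BMPR1A, SMAD5, SMAD7, SMAD1, BMPR2, BMP4, SMAD6. All 10 genes were detected, that is, at 1 CPM or more in both libraries. Of 12227 protein-coding genes detected, whose median was 14.4 TPM, 97.8% were lower than ID1 and 13.1% lower than SMAD6.

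Among the 9 pairs of neighbours in this order, the ranges of the 2 libraries did not overlap in 6. ID3 and ID2 overlapped, as did SMAD7 and SMAD1, and BMPR2 and BMP4, so these pairs have no order beyond their spread. With reads per kilobase of merged exons in place of TPM, 7 of the 9 pairs were separate. The order was then the same except that BMPR2 (2.76 to 3.27) stood above SMAD1 (2.62 to 2.68).

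**Figure D1:**
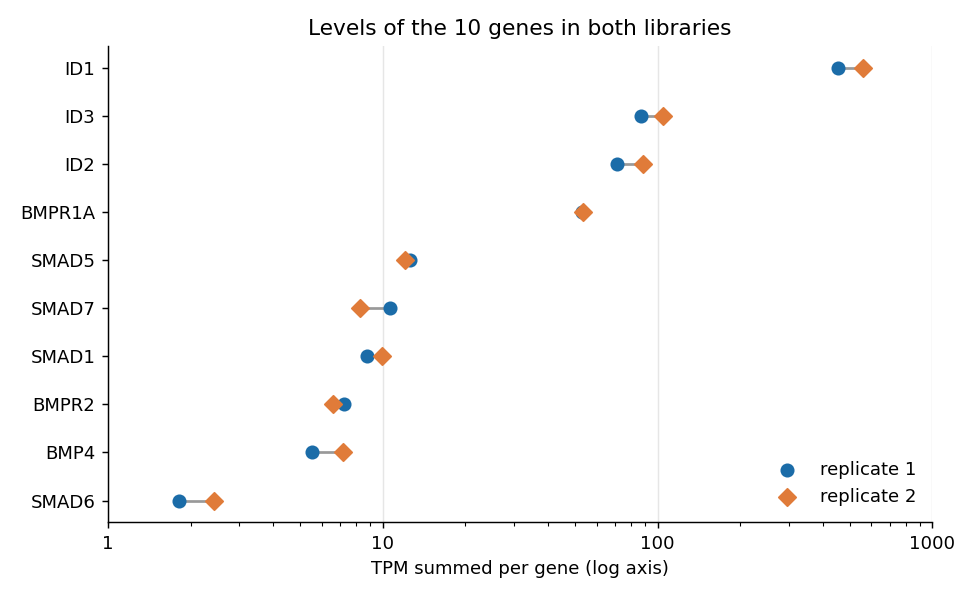
TPM summed per gene (log axis) for each of the 10 genes, with replicate 1 as circles and replicate 2 as diamonds joined by a line. ID1 stands apart at 455 and 557 TPM, ID3, ID2 and BMPR1A follow between 53 and 105 TPM, and the other 6 genes lie between 1.81 and 12.6 TPM.

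BMP4 is the ligand among the 10, and it was low, with TPM of 5.53 and 7.18. Its 161 reads in replicate 1 came to 6.67 CPM (5.72 to 7.78, the 95% Wilson interval, as for all CPM below), and its 192 reads in replicate 2 came to 8.65 CPM (7.51 to 9.96). Its difference of 0.33 on the log2(CPM + 1) scale, replicate 2 against replicate 1, did not pass the test (adjusted p = 0.0882, edgeR exact binomial test with Benjamini-Hochberg adjustment). The ratio of the libraries was 1.30, with an exact 95% interval of 1.05 to 1.62. All intervals here cover counting error only.

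BMP4 was not the main BMP ligand RNA in these cells. BMP7, a ligand that signals through the same SMADs, was at 24 TPM in replicate 1 and 23.7 TPM in replicate 2, and it made up 71% ± 3.29 (SD, n = 2) of the TPM of 13 ligand genes. BMP4 made up 16.9% and 20.8% of it. BMP6, BMP8A and BMP8B were detected at mean TPM of 1.12, 0.86 and 0.607, and BMP2 had 17 and 34 reads. The TPM of BMP8A is uncertain, since its reads were 3.66 and 3.65 times what its TPM predicts. In reads per kilobase BMP8A was at 2.35 and 1.86, beside 2.16 and 2.81 for BMP4 and 6.54 and 6.63 for BMP7. BMP15 and GDF2 had no read in either library. Of 7 ligand genes tested, none passed in either direction, where 13.1% of all genes tested did. The median difference of the 5 detected ligand genes was 0.24.

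BMPR1A, the type I receptor kinase among the 10, was the fourth highest of them and nearly equal in both libraries. It was at 53 TPM in replicate 1 and 53.7 TPM in replicate 2. It received 4489 reads, or 186 CPM (181 to 191), and 4271 reads, or 192 CPM (187 to 198). The ratio was 1.04, with an interval of 1.00 to 1.08, and the difference of 0.05 did not pass (adjusted p = 0.245, edgeR exact binomial test). BMPR1A made up 74.7% ± 1.04 (SD, n = 2) of the TPM of the 4 type I receptor genes. The other type I receptors were lower, with ACVR1 at 15.5, BMPR1B at 1.67 and ACVRL1 at 0.835 mean TPM. The TPM of ACVR1 is uncertain, because its reads exceeded what its TPM predicts by 3.01 and 4.95 times. In reads per kilobase of merged exons the lead of BMPR1A was all but gone, with 16.3 and 16.9 for BMPR1A and 15.2 and 16.8 for ACVR1.

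BMPR2, the type II receptor dedicated to BMP ligands, was lower in replicate 2. It received 939 reads, or 38.9 CPM (36.5 to 41.5), in replicate 1 and 730 reads, or 32.9 CPM (30.6 to 35.4), in replicate 2. The ratio was 0.85, with an interval of 0.77 to 0.94, and the difference was -0.24 (adjusted p = 0.0119, edgeR exact binomial test). In TPM it was at 7.24 and 6.61, a difference of -0.11 on the log2(TPM + 1) scale, less than that in CPM. BMPR1A exceeded it in TPM by 7.32 and 8.12 times. In reads per kilobase this gap was smaller, with 16.3 and 16.9 for BMPR1A and 3.27 and 2.76 for BMPR2. ACVR2B, a type II receptor shared with activins, was also lower in replicate 2, with 1309 and 995 reads and a difference of -0.27 (adjusted p = 2.6e-04, same test). ACVR2A, the third of this class, did not pass, with 138 and 111 reads and a difference of -0.16 (adjusted p = 0.626, same test). All 3 type II receptor genes had negative differences, and 2 of them were called lower, as were 6.35% of all genes tested. These 3 genes were not tested as a class. BMPR2 made up 47.6% ± 1.23 (SD, n = 2) of the TPM of this class, but in reads per kilobase it was at 3.27 and 2.76, beside 3.44 and 2.85 for ACVR2B.

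Co-receptors that help ligands onto these kinases were present as well. TGFBR3 was the highest of the 5 at 12.4 mean TPM. RGMB, a membrane protein that binds BMP ligands, was lower in replicate 2, with 531 and 380 reads and a difference of -0.34 (adjusted p = 0.00401, edgeR exact binomial test). None of the co-receptors was called higher, where 6.78% of all genes tested were.

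SMAD1 and SMAD5, which carry the signal into the nucleus, stood on either side of SMAD7 in the order by TPM, and neither passed the test between libraries. SMAD5 was at 12.6 and 12.1 TPM, with 1325 reads (54.9 CPM) and 1247 reads (56.2 CPM). Its difference was 0.03 and its ratio 1.03, with an interval of 0.95 to 1.11 (adjusted p = 0.737, edgeR exact binomial test). On the TPM scale the difference of SMAD5 was -0.06, so its sign rests on the measure. SMAD1 was at 8.73 and 9.97 TPM, with 383 reads (15.9 CPM) and 360 reads (16.2 CPM). Its ratio was 1.03 too, with a wider interval of 0.89 to 1.19 (adjusted p = 0.883, same test), and its difference was 0.03 in CPM and 0.17 in TPM. SMAD9, the third SMAD of this kind, was near the detection threshold at 1.2 and 1.62 CPM, or 0.332 mean TPM. SMAD5 thus made up 58.3% and 53.8% of the TPM of the 3 genes and SMAD1 40.4% and 44.5%. In reads per kilobase they lay farther apart, at 6.07 and 6.21 for SMAD5 and 2.62 and 2.68 for SMAD1. SMAD4, the partner of all of them, was at 20.2 and 20.4 TPM. It was called higher in replicate 2, with 965 and 999 reads and a difference of 0.17 (adjusted p = 0.0484, same test), a call that was lost when total reads set the scale (adjusted p = 0.0625).

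SMAD7, which blocks the receptors of both the BMP and the TGF-beta branch, was above SMAD6, the inhibitor more particular to BMP. SMAD7 was at 10.6 TPM in replicate 1 and 8.3 TPM in replicate 2, with 483 reads (20 CPM) and 397 reads (17.9 CPM). Its ratio was 0.90, with an interval of 0.78 to 1.03, and its difference of -0.15 did not pass (adjusted p = 0.355, edgeR exact binomial test), while in TPM the difference was -0.32. SMAD6 was at 1.81 and 2.43 TPM, with 125 reads (5.18 CPM) and 143 reads (6.44 CPM). Its difference of 0.27 did not pass either (adjusted p = 0.267, same test), and its interval of 0.98 to 1.60 was the widest among the SMAD genes of the 10 because its reads were fewest. The inhibitors had differences of opposite sign, and the TPM of SMAD7 over that of SMAD6 was 5.89 in replicate 1 and 3.42 in replicate 2. The TPM of SMAD7 includes the retained-intron transcript SMAD7-202, at 3.95 in replicate 1 and listed at 0 in replicate 2. The main coding transcript SMAD7-201 was at 6.09 and 8.3 TPM. The TPM of SMAD6 includes the noncoding SMAD6-205, at 0.426 and 0.413, and the coding SMAD6-201 was at 1.38 and 2.01. SMAD7-201 and SMAD6-201 were thus both higher in replicate 2, and the change in the ratio depends on which transcripts are counted. In reads per kilobase SMAD7 was at 3.98 and 3.55 and SMAD6 at 0.605 and 0.752. SMAD6 and SMAD7 together came to 0.575 and 0.479 of the TPM of SMAD1, SMAD5 and SMAD9.

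The inhibitors FKBP1A and BAMBI were at higher levels than SMAD6 and SMAD7. FKBP1A, which binds type I receptors and holds them inactive, was the highest of 9 at 359 ± 4.53 TPM (SD, n = 2). BAMBI, a receptor-like protein without a kinase that is itself a BMP target, was at 69.5 and 70.3 TPM. All 9 genes of this class were tested and none passed in either direction, with a median difference of 0.01. Over all genes tested 13.1% passed, so none among 9 genes says little of the class.

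Outside the cell, 9 of 16 antagonists that bind the ligands were detected. SOSTDC1 was highest at 45 and 57.9 TPM and was called higher in replicate 2, with 1264 and 1534 reads and a difference of 0.39 (adjusted p = 9.0e-12, edgeR exact binomial test). TWSG1 was also higher, with 830 and 906 reads and a difference of 0.24 (adjusted p = 0.00371, same test). FST, the gene of follistatin, was lower, with 143 and 76 reads and a difference of -0.65 (adjusted p = 0.00186, same test). NOG, the gene of noggin, had 0 reads in replicate 1 and 2 reads in replicate 2, and GREM1 and CER1 had no read in either.

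**Figure D2:**
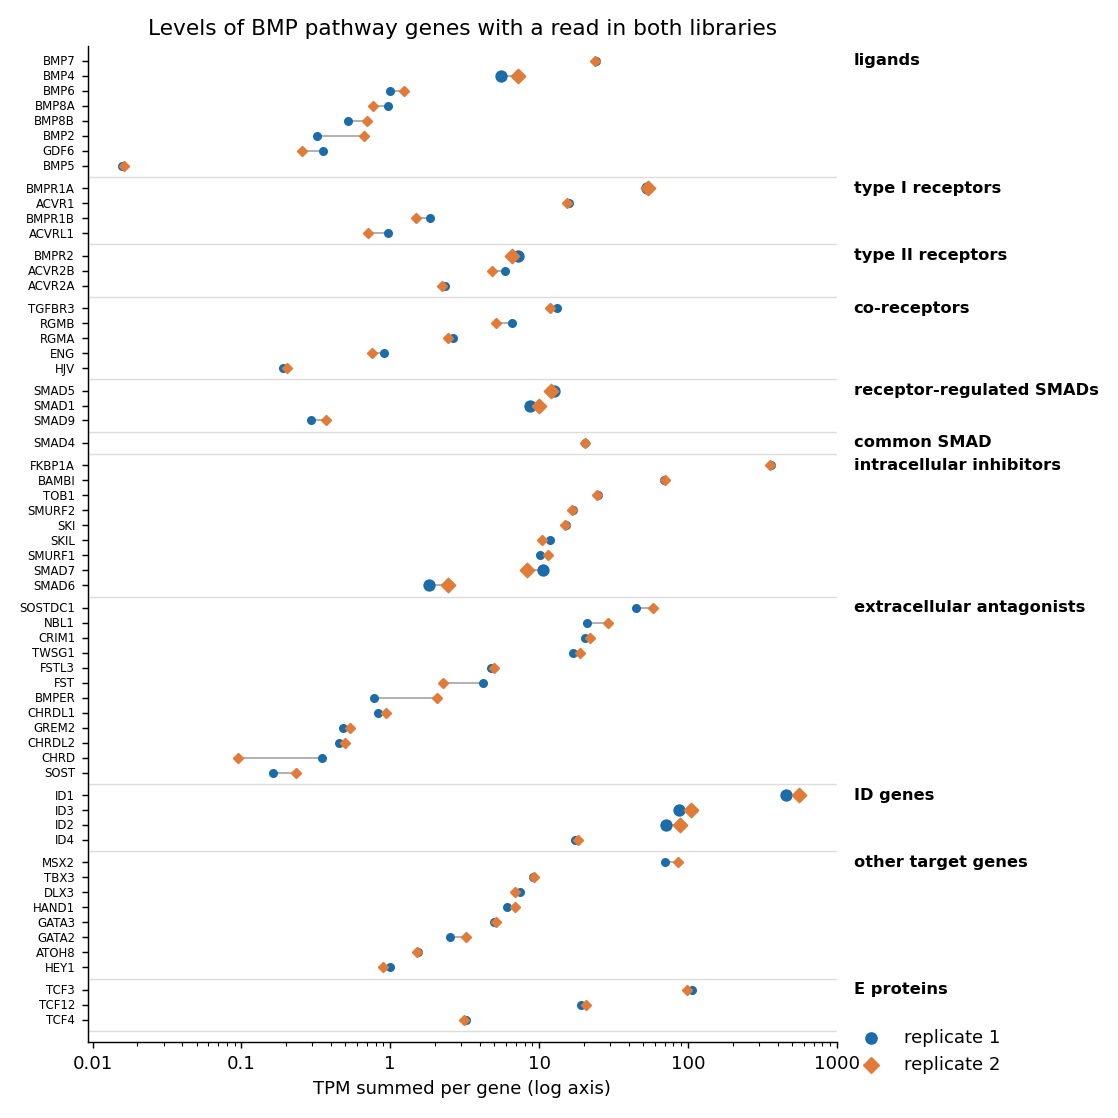
TPM summed per gene (log axis) for the 60 of 71 pathway genes with a read in both libraries, grouped by role, with replicate 1 as circles and replicate 2 as diamonds and the 10 genes drawn larger. ID1 (455 and 557 TPM) and FKBP1A (362 and 356 TPM) lie farthest to the right, and among the 4 type I receptors BMPR1A does.

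ID1, ID2 and ID3 were all higher in replicate 2, and together they made up most of the ID gene RNA. ID1 received 6354 reads in replicate 1, or 263 CPM (257 to 270), and 7038 reads in replicate 2, or 317 CPM (310 to 325). ID2 received 1383 reads, or 57.3 CPM (54.4 to 60.4), and 1611 reads, or 72.6 CPM (69.1 to 76.2). ID3 received 1241 reads, or 51.4 CPM (48.6 to 54.4), and 1354 reads, or 61 CPM (57.8 to 64.3). In each of the 3 genes the interval of replicate 2 lay above that of replicate 1. The intervals rest on the same reads as the test, so this adds nothing to the calls. Of all 15299 genes tested, 6.78% were called higher. How many genes have separate intervals was not counted.

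The 3 ratios lay between 1.19 and 1.27. The ratio was 1.21 for ID1 (1.17 to 1.25), with a difference of 0.27 (adjusted p = 6.2e-26, edgeR exact binomial test). For ID2 the ratio was 1.27 (1.18 to 1.37), with a difference of 0.34 (adjusted p = 3.1e-09, same test). For ID3 the ratio was 1.19 (1.10 to 1.29), with a difference of 0.24 (adjusted p = 1.9e-04, same test). The 3 intervals overlap one another, and whether the ratios differ was not tested. ID4, the fourth gene of the family, had 971 and 978 reads and a ratio of 1.10 (1.01 to 1.20), and it did not pass (adjusted p = 0.166, same test).

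The makeup of the ID family was close in the 2 libraries. ID1 made up 72.1% of the TPM of ID1 to ID4 in replicate 1 and 72.5% in replicate 2. ID3 made up 13.8% and 13.6%, ID2 11.3% and 11.5%, and ID4 2.77% and 2.39%. The share of ID4 depends on the measure, since its reads were 1.46 and 1.52 times what its TPM predicts. In reads per kilobase ID4 was at 17.2 and 18.8, beside 26 and 32.9 for ID2. TCF3, TCF12 and TCF4 encode the E proteins that ID proteins bind, and they were at 103, 19.9 and 3.18 mean TPM. None of the 3 E protein genes passed the test, where 13.1% of all genes did, and their median difference was -0.07. The summed TPM of the 4 ID genes was 4.87 times that of the 3 E protein genes in replicate 1 and 6.3 times in replicate 2. This is a ratio of RNA by TPM alone, and protein was not measured.

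Of the other target genes, MSX2, a homeobox gene induced by BMP, was the highest at 70.6 and 85.4 TPM. It was higher in replicate 2 by an amount close to that of the ID genes, with 2218 reads (91.9 CPM) and 2630 reads (118 CPM) and a difference of 0.36 (adjusted p = 3.7e-17, edgeR exact binomial test). The other 7 detected targets, TBX3, DLX3, HAND1, GATA3, GATA2, ATOH8 and HEY1, did not pass, and their differences ran from -0.25 in ATOH8 to 0.14 in HAND1. The BMP targets on the list thus did not all differ in 1 direction. MSX1 and DLX5 had at most 1 read.

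Set beside the whole table, the median difference of the 10 genes was 0.15, against -0.0077 over the 13898 genes averaging 1 CPM or more. Of the 10 differences, 8 were positive. The 10 genes were chosen with earlier results of these data known, so these values are a description and no test of the set. Over those 13898 genes, 3.07% had a larger difference than ID2, 5.33% a larger one than ID1 and 6.5% a larger one than ID3, while 8.34% had a lower one than BMPR2. The 10 genes range from 125 to 7038 reads, and the test calls a smaller difference where reads are many. Among the 61 pathway genes outside the 10, 8 of 45 tested were called (17.8%, near the 13.1% over all genes), 5 higher and 3 lower, with a median difference of 0.01 over the 43 detected.

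These p-values ask whether 2 libraries differ by more than counting noise. Such a difference may be technical. The p-values do not measure the spread between samples and say nothing of a condition. The calls for ACVR1 (1460 and 1484 reads, difference 0.14, adjusted p = 0.036, edgeR exact binomial test) and SMAD4 were lost under total reads as the scale or with all genes tested, with adjusted p of 0.0509 and 0.0698 for ACVR1 and 0.0625 and 0.0903 for SMAD4. The 4 calls among the 10 genes were kept under each scaling and filter tried.

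**Figure D3:**
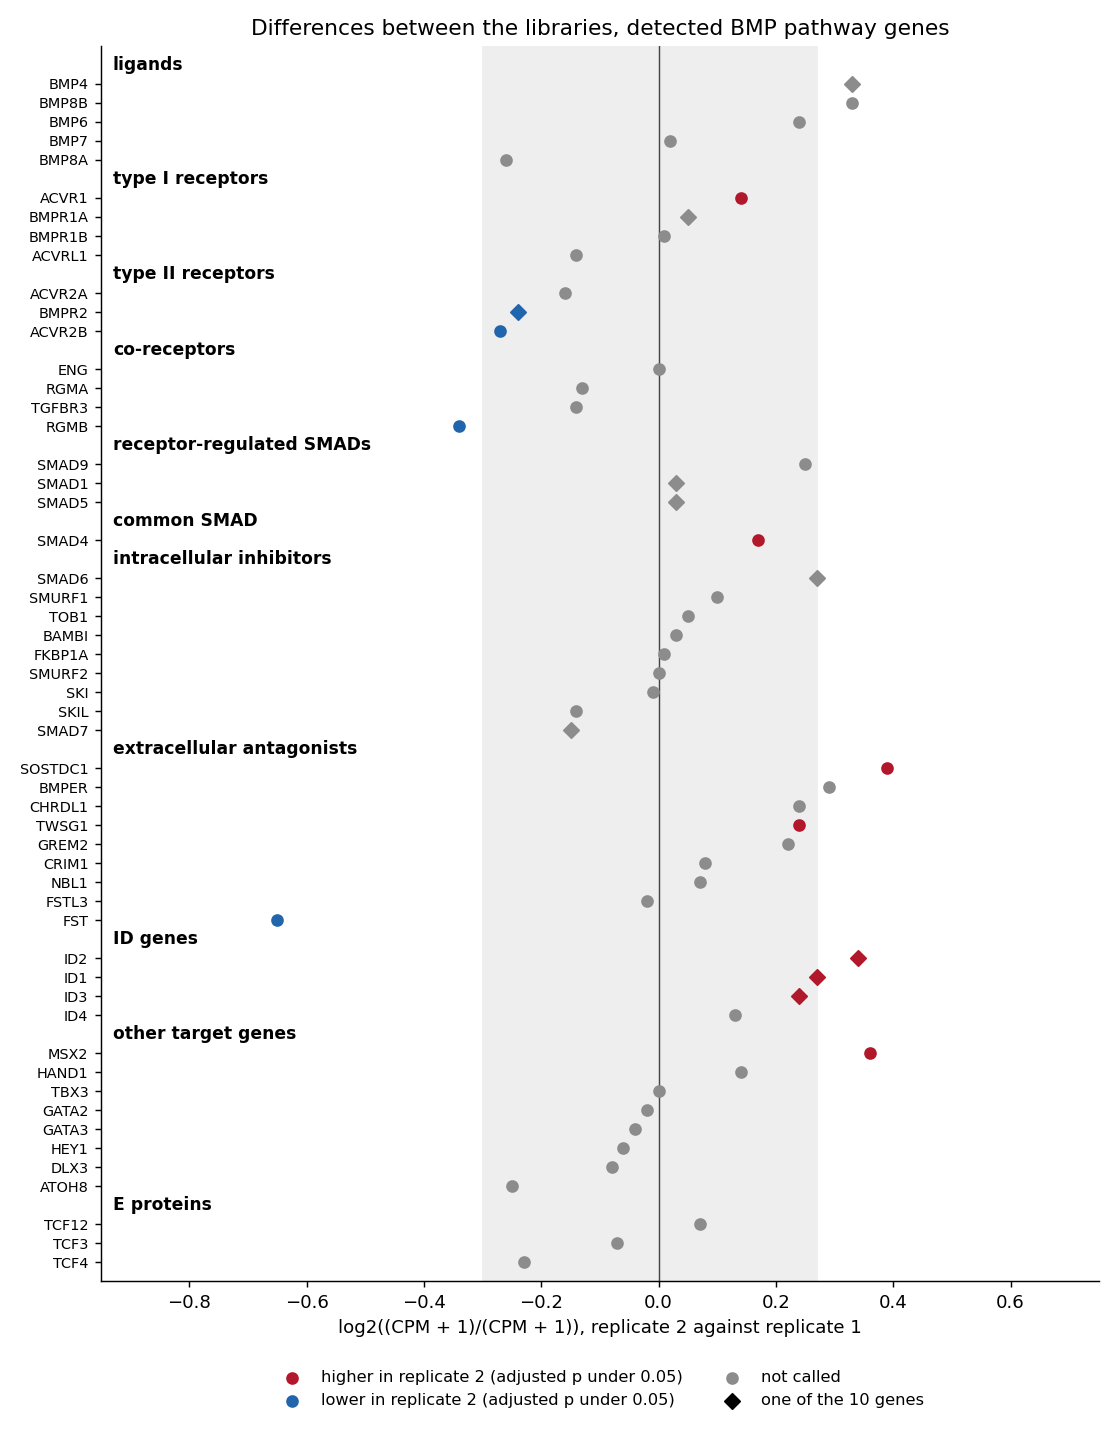
Difference of each of the 53 detected pathway genes on the log2(CPM + 1) scale, replicate 2 against replicate 1, grouped by role, with colours for calls at an adjusted p under 0.05 and diamonds for the 10 genes. The grey band runs from the 5th to the 95th percentile of 13898 genes (-0.30 to 0.27), ID2 lies beyond its right edge at 0.34, ID1 on it at 0.27 and ID3 just inside at 0.24, and the type II receptors lie left of 0.

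The 3 ID genes each used 1 transcript almost alone. ID1-202, of 2 exons and 994 bases, held 95.6% and 94.9% of the TPM of ID1. The rest was ID1-201, which keeps the intron and so ends in a different coding sequence of 447 bases in place of 465, at 4.36% and 5.1%. ID2-203 held 99.4% and 99% of ID2, and ID3-201 held 99.5% and 99.7% of ID3. In TPM these transcripts were at 436 and 529 (ID1-202), 71 and 87.3 (ID2-203) and 86.8 and 104 (ID3-201), higher in replicate 2 in each case.

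BMPR1A gave another picture on the 2 possible scales. By TPM its leading transcript was BMPR1A-204, with 48.7% and 50.2%, a transcript of 3233 bases that GENCODE classes under nonsense-mediated decay. Its coding exons are the same as those of BMPR1A-201. BMPR1A-201, of 11255 bases, held 26.4% and 28.3%, and BMPR1A-202, a partial transcript of 421 bases, held 23.7% and 20.4%. The long and the middle transcript differ mainly after the coding sequence, which is followed by 9122 bases in the first and 1367 bases in the second, stop codon included. Weighted by length, as sequenced fragments are, BMPR1A-201 led with 63.1% and 64.3%, BMPR1A-204 had 33.4% and 32.8%, and BMPR1A-202 had 2.12% and 1.74%.

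BMPR2 showed the same contrast of scales. The full transcript BMPR2-202, of 11461 bases, held 60.7% and 56.7% of its TPM, and the noncoding BMPR2-203, of 757 bases, held 35.3% and 43.3%. Weighted by length, BMPR2-202 held 91.4% and 95.2%. The lower read count of BMPR2 in replicate 2 went with a TPM of BMPR2-202 that was 4.4 in replicate 1 and 3.75 in replicate 2, while BMPR2-203 was at 2.56 and 2.87.

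BMP4 was the gene of the 10 whose leading transcript differed between libraries. BMP4-206 held 84.9% of its TPM in replicate 1 and 20.3% in replicate 2. BMP4-205 was listed at 0 in replicate 1 and held 59.9% in replicate 2. These transcripts share the same coding sequence of 1224 bases and differ mainly in the noncoding exons before it, which come to 185 bases in BMP4-206 and 187 bases in BMP4-205. The whole gene had 161 and 192 reads. SMAD7 moved in a similar way without a new leader, with SMAD7-201 at 57.2% and 100% and the retained-intron transcript SMAD7-202 at 37.1% in replicate 1 and listed at 0 in replicate 2. These are estimates from salmon without an error of their own, so none of these shifts was tested.

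**Figure D4:**
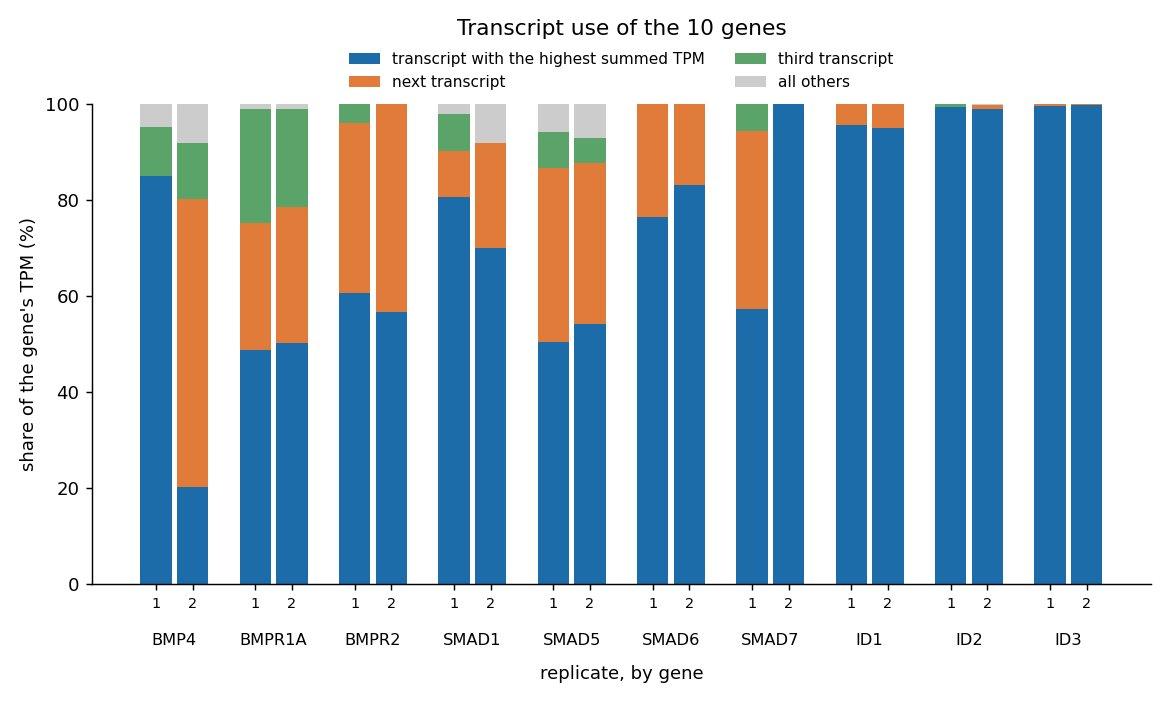
Share of the TPM of each gene (in percent, stacked to 100) held by its 3 leading transcripts and by all others, with 1 bar per replicate. The ID genes are nearly a single block in both libraries, and BMP4 shows the change from 84.9% to 20.3% in its leading transcript.

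SMAD5, SMAD1 and ID2 overlap antisense genes in GENCODE 29, and the counting strand is not given in the sources used here. The overlap was 376 bases of SMAD1 with SMAD1-AS1, 610 bases of SMAD5 with SMAD5-AS1 and 38 bases of ID2 with ID2-AS1. Those antisense genes had 0, 4 and 37 reads in replicate 1 and 0, 2 and 31 reads in replicate 2, few beside the reads of the genes themselves. The processed pseudogenes BMPR1AP1, BMPR1AP2 and ID2B, copies of BMPR1A and ID2, had at most 2 reads. Reads counted per gene and reads predicted from its TPM lay within 0.694 to 1.59 times of each other in all 10 genes, lowest in ID3 and highest in SMAD1.

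On GRCh38 (GENCODE 29), the target genes lie on 3 chromosomes. ID1 (ENSG00000125968.9) lies at chr20:31605283-31606515 on the plus strand, ID2 (ENSG00000115738.10) at chr2:8678845-8684453 on the plus strand and ID3 (ENSG00000117318.9) at chr1:23557918-23559794 on the minus strand. BMP4 (ENSG00000125378.16) lies at chr14:53949736-53958761 on the minus strand. The receptors lie on the plus strand, BMPR1A (ENSG00000107779.15) at chr10:86756601-86932838 and BMPR2 (ENSG00000204217.16) at chr2:202376936-202567751. SMAD1 (ENSG00000170365.10) lies at chr4:145481194-145558079, SMAD5 (ENSG00000113658.18) at chr5:136132845-136188747 and SMAD6 (ENSG00000137834.15) at chr15:66702228-66782848, all on the plus strand. SMAD7 (ENSG00000101665.10) lies at chr18:48919853-48952052 on the minus strand.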

How the data were processed

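Polyadenylated RNA was made into strand-marking libraries, per the labels' protocols. GRCh38, Trim Galore 0.6.10, STAR 2.7.11a, Salmon 1.10.2 and DESeq2 are named in the submitters' processing notes, with no roles. The annotation release, the counter and its strand setting are not given in the sources used here. The authors deposited TPM per transcript for 251955 transcripts, made with salmon. Of these, 201667 matched GENCODE 29 and were summed per gene, and they carry 94.8% of TPM in each library. The name of the gene table the authors deposited says CPM, but its signal cannot be CPM, since the columns sum to 24607395 and 24842414. All values were whole multiples of 1.02 (replicate 1) or 1.12 (replicate 2), 100% within 0.01 reads, so each is a whole read count over a factor, and reads were recovered and CPM was computed from them over all reads in genes. No column of values was left unused.

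Genes kept by filterByExpr (15299) were compared between the libraries with binomTest of edgeR 4.0.16 in R 4.3.3, a two-sided exact binomial test. Effective library sizes came from TMM, p-values were adjusted by Benjamini-Hochberg, and the threshold was 0.05. The procedure was tested on simulated data. Differences are log2((CPM + 1)/(CPM + 1)), replicate 2 against replicate 1, which understates the change of low genes. Intervals of CPM are 95% Wilson intervals over all reads in genes, and intervals of ratios are exact 95% binomial ones on TMM sizes. Reads carry no molecular identifiers. Detected means 1 CPM or more in both libraries.

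The 10 genes and the lists of pathway genes and cell type markers were chosen with earlier results of these data known. Named were all 10 genes, the highest of each role by TPM, pathway genes that were detected or called, and those without a read. Alternatives covered DESeq2 1.42.0 size factors, total reads, the deposited factors, the filter, the detection threshold, the pseudocount, TPM in place of CPM, reads per kilobase, protein-coding transcripts alone and each library alone. The control libraries were not analysed here.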

Additional observations from a re-analysis of the deposited data

How the results depend on the processing

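All 10 genes were detected at 0.1, 1 and 5 CPM, at 1 TPM and in each library alone, and 4 were called under DESeq2 size factors, total reads, the deposited factors and all genes with a read. Of 71 pathway genes, 53 were detected, 41 at 5 CPM, 59 at 0.1 CPM, 44 by TPM, and 53 to 54 without replicate 2 or replicate 1. Calls on the pathway list numbered 12, with 12 under DESeq2 size factors and the deposited factors, 10 under total reads (ACVR1 and SMAD4 lost) and 11 with all genes tested, where CHRD (20 and 3 reads) was added at an adjusted p of 0.0137 from edgeR's exact binomial test. Over all genes the calls numbered 1995 to 2019 under the scalings and 1716 of 26504 with all genes tested. The median difference of the 10 genes was 0.22 by TPM and 0.15 with the other settings. Of 60 alternatives for the differences of the 10 genes, 59 kept the direction and, where the test was run again, the side of its threshold. The exception was SMAD5, -0.06 by TPM against 0.03. Sizes moved by TPM, which has no test here, in BMPR2 (-0.11 against -0.24), BMPR1A (0.02 against 0.05), SMAD1 (0.17 against 0.03) and SMAD7 (-0.32 against -0.15). The test cannot be run without a library, since each arm is 1 library. No paired analysis was possible because both libraries belong to 1 group. Depth limits SMAD6 and BMP4 most, with 125 to 192 reads each.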
